A study of Bos taurus with 6 samples.

Results

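The miR-15/16 seed family, with bta-miR-195 and bta-miR-497, and the cluster of bta-miR-424 and bta-miR-503 were examined in liver small RNA of Angus cattle under 2 feeding regimens. The 9 members were picked out by their names from the 1030 mature miRNAs listed for each library. They are bta-miR-15a, bta-miR-15b, bta-miR-16a, bta-miR-16b, bta-miR-195, bta-miR-497, bta-miR-424-5p, bta-miR-424-3p and bta-miR-503-5p. All 9 had a row in every library, each has a single precursor there, and all 9 passed the filter, which asked for more than 2 counts in 2 or more libraries. The grass-fed group held 3 steers of the Wye Angus breed, 21 months old, raised after weaning on alfalfa, hay or grass pasture. The grain-fed group held 3 steers of the same breed, 14 months old, raised on corn silage, shelled corn, soybean and minerals. All animals were sampled at market weight, from a herd that the study describes as long closed to outside breeding, and 1 library was made per animal. Diet, age and sequencing depth divided the libraries in the same way and cannot be told apart.

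Members of the miR-15/16 family share a seed, the short stretch at the 5′ end of a miRNA that pairs with target messages. The family is known as a brake on the cell cycle, through targets such as the cyclins D1 and E1 and the kinase WEE1, and as a promoter of cell death through BCL2, and the pair of miR-15a and miR-16 is lost in many human chronic lymphocytic leukaemias. The genes lie in pairs, each pair transcribed as 1 primary RNA, so that the levels of 2 mature partners depend on common transcription and on separate processing and decay. miR-424 and miR-503 come from an X-linked cluster with miR-542 and miR-450, and the miR-503 seed is close to the family seed but differs from it. The 3p arm of miR-424 is the opposite strand of that hairpin and carries another seed.

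By gene symbol, the precursors of all members were found in the RefSeq annotation of ARS-UCD2.0, a later assembly than the one used by the authors. MIR15A and MIR16A are direct neighbours there and overlap a transcribed pseudogene, LOC100847818. MIR15B and MIR16B are direct neighbours within SMC4, which encodes a condensin subunit needed for chromosome condensation in mitosis. MIR195 and MIR497 are neighbours and overlap the lncRNA LOC107131510. MIR503 and MIR424 are neighbours, and the order of the named genes on that side is MIR450B, both MIR450A copies, MIR542, MIR503 and MIR424.

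Counts summed over mature miRNAs lay between 3824592 and 6133960 in the grass-fed libraries and between 464875 and 892929 in the grain-fed libraries. Levels are given as CPM, a count scaled to a common library total, after TMM scaling, which sets libraries to a common level on the bulk of the miRNAs. The 3 values of a group are always given in the order of replicates 1, 2 and 3. A count of 0 allowed up to 0.787 CPM in the grass-fed library with the highest such limit and up to 5.32 CPM in the shallowest grain-fed library, with the floor set at 3 counts. Floors and intervals of single libraries cover counting error alone. The hepatocyte miRNAs bta-miR-122, bta-miR-192, bta-miR-194 and bta-miR-148a together held 516580 to 820660 CPM in grass-fed and 328180 to 389840 CPM in grain-fed libraries. The skeletal muscle miRNAs bta-miR-1, bta-miR-133a and bta-miR-206 together held 312 to 522 CPM in grass-fed and 197 to 353 CPM in grain-fed libraries. Of these, bta-miR-206 had at most 3 counts in any library. Of the hepatocyte list 2 of 4 were higher in grass-fed liver at FDR 0.1 in edgeR, where 9.43% of all tested miRNAs were, and bta-miR-194 lay the other way without passing (log2 fold change -0.43, FDR = 0.300, edgeR). Of a stellate or mesenchymal list 3 of 5 were higher, with summed levels of 79753 to 115810 CPM in grass-fed and 73761 to 86462 CPM in grain-fed libraries. In edgeR 0 of 2 endothelial miRNAs passed, with 0 at an unadjusted p below 0.05, and 0 of 2 tested muscle miRNAs, with 1 below 0.05. That 1 was bta-miR-1, with means of 387 CPM in grass-fed and 228 CPM in grain-fed libraries. Its log2 fold change was 0.74 (unadjusted p = 0.0226, FDR = 0.113, edgeR). The other, bta-miR-133a, had means of 25.3 and 22.1 CPM (log2 fold change 0.10, FDR = 0.894, edgeR). Of all tested miRNAs 19.1% passed in either direction and 25.2% had a p below 0.05. The part of cell composition in the members' levels was not tested.

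Among the members, bta-miR-16b alone passed FDR 0.1 in the diet comparison, and it was lower in grass-fed liver. It was 1.78-fold higher in grain-fed than in grass-fed liver, while its near-identical copy bta-miR-16a and its cluster partner bta-miR-15b did not pass the test. In all, 1 of 9 members passed FDR 0.1 by the quasi-likelihood test of edgeR, adjusted over all 456 tested miRNAs. Of these 456, 19.1% passed, made up of 9.65% lower and 9.43% higher in grass-fed liver. An unadjusted p below 0.05 was reached by 2 of 9 members and by 25.2% of all tested miRNAs. The median log2 fold change of grass-fed over grain-fed was -0.06 over the 9 members and 0.13 over all tested miRNAs. CPM ranges of the diets, with 3 libraries each, did not overlap for 2 members, bta-miR-16b and bta-miR-503-5p, against 32.9% of all tested miRNAs (13.2% lower and 19.7% higher in grass-fed liver). In bulk tissue, fewer cells of a type and less RNA per cell cannot be told apart.

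**Figure D1:**
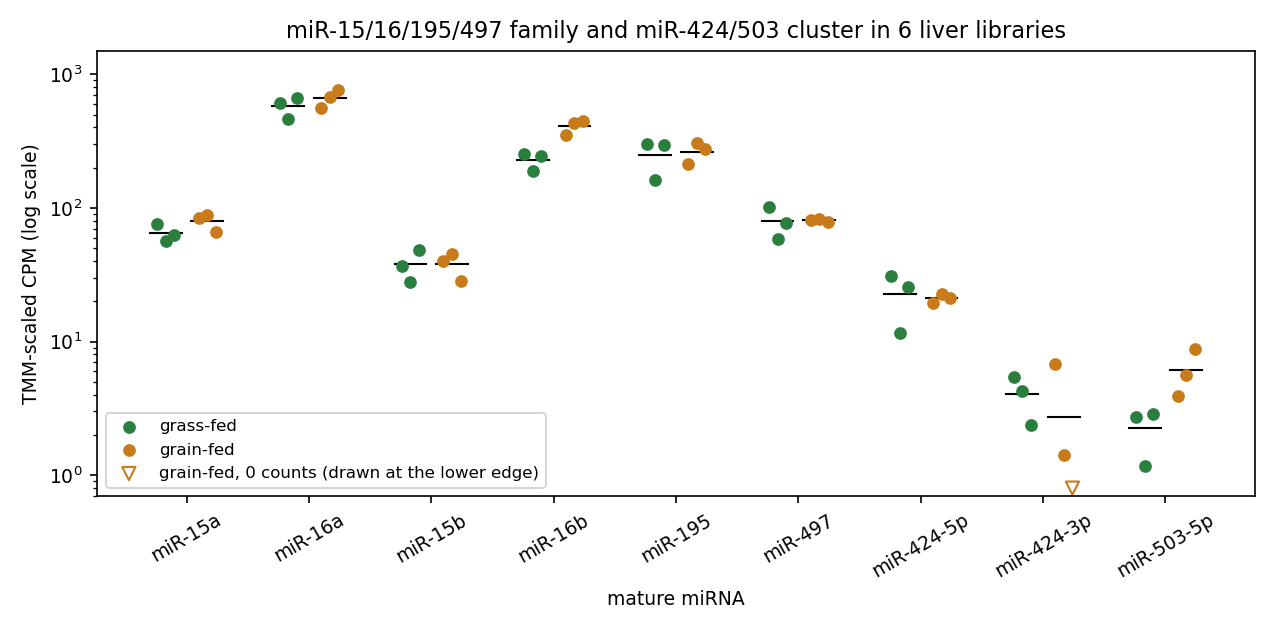
TMM-scaled CPM of each member on a log scale, with 1 point per library, grass-fed in green and grain-fed in orange, a black line at the mean of 3 libraries, and an open triangle at the lower edge for the library with 0 counts. The 2 groups are apart for bta-miR-16b and for the scarce bta-miR-503-5p and overlap for the other 7 members.

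In the pair from the SMC4 locus, bta-miR-16b passed the test and bta-miR-15b did not. bta-miR-16b had 254, 189 and 243 CPM in the grass-fed group and 354, 430 and 444 CPM in the grain-fed group. Every grass-fed library was below every grain-fed library, with means of 229 ± 34.5 and 409 ± 48.6 CPM (SD, n = 3 each). The log2 fold change was -0.83 (standard error 0.22, 95% interval -1.32 to -0.35, FDR = 0.0234, edgeR quasi-likelihood test). It stayed below 0, with FDR below 0.1, in each of the 20 alternatives that gave it a value, with FDR between 0.00223 and 0.0885. bta-miR-15b had 36.8, 27.8 and 48.6 CPM in the grass-fed and 39.9, 45.3 and 28.4 CPM in the grain-fed libraries. Its groups overlapped fully, with means of 37.7 ± 10.4 and 37.9 ± 8.65 CPM (SD, n = 3 each). The fitted change was -0.03 on the log2 scale, with a 95% interval from -0.71 to 0.65 (FDR = 0.947, edgeR), which spans changes in either direction.

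A ratio of counts within a library does not depend on how libraries are scaled to each other. bta-miR-15b had 0.145, 0.147 and 0.200 counts for each count of bta-miR-16b in the grass-fed group, and 0.113, 0.105 and 0.0640 in the grain-fed group. The ratio was higher in each grass-fed library than in any grain-fed library, by 0.81 on the log2 scale (two-sided exact permutation p = 0.1, adjusted p = 0.25 over 5 ratios). With 3 libraries against 3, 0.1 is the smallest p this test can give, so no ratio could pass 0.05. bta-miR-15b rested on 41, 32 and 16 counts in the grain-fed group.

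bta-miR-16a and bta-miR-16b differ little in their mature form, so reads that fit both may be counted under either name, and how the authors' counting divided them is not given in the sources used here. bta-miR-16a was the most abundant member in every library. It had 607, 461 and 664 CPM in the grass-fed group and 563, 675 and 759 CPM in the grain-fed group, so that the groups overlapped. The log2 fold change of bta-miR-16a was -0.20 (standard error 0.22, 95% interval -0.69 to 0.29, FDR = 0.651, edgeR). The comparison of both copies within a library was chosen after their values were seen. bta-miR-16b made up 29.5%, 29.1% and 26.8% of the counts of both copies in the grass-fed libraries. The exact 95% binomial intervals of these shares were 28.1 to 30.9%, 27.4 to 30.9% and 25.3 to 28.3%, for counting error only. In the grain-fed libraries the share was 38.6%, 38.9% and 36.9%, with intervals of 35.5 to 41.8%, 35.5 to 42.4% and 33.2 to 40.6%. No grass-fed interval overlapped a grain-fed interval, and the group means were 28.5% ± 1.48 and 38.1% ± 1.10 (SD, n = 3 each). On the log2 scale the ratio of bta-miR-16b to bta-miR-16a was lower by 0.63 in grass-fed liver (exact permutation p = 0.1, adjusted p = 0.2 over 8 ratios). When both copies were counted as 1 miRNA with the larger count, the count of bta-miR-16a was kept in every library. The merged miRNA therefore stood where bta-miR-16a did, at -0.20 on the log2 scale (FDR = 0.648, edgeR). In that setting 0 members passed FDR 0.1, because bta-miR-16b was left out by construction. The sum of both copies was not tested. Added together, the copies had 650 to 907 CPM in grass-fed and 917 to 1203 CPM in grain-fed libraries, ranges that did not overlap but lay close to each other.

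**Figure D2:**
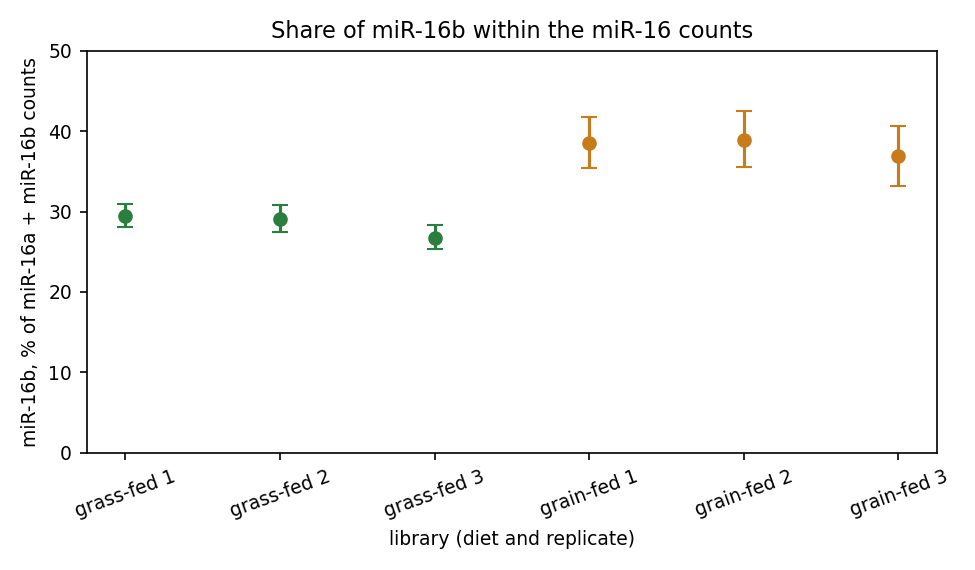
Percent of the counts of bta-miR-16a and bta-miR-16b that were listed under bta-miR-16b, by library, with exact 95% binomial intervals as bars. Grass-fed libraries lie between 26.8% and 29.5% and grain-fed libraries between 36.9% and 38.9%.

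The miRNAs whose pattern over the 6 libraries was nearest to that of bta-miR-16b were bta-miR-374a, bta-miR-6524 and bta-miR-150. Nearness was measured as the root-mean-square difference of mean-centred log2 CPM, among 253 miRNAs outside the family with a mean of at least 10 CPM. It was 0.12, 0.19 and 0.22 in that order, where the median of all 253 was 0.68. bta-miR-374a had 118, 81.8 and 113 CPM in the grass-fed group and 130, 187 and 188 CPM in the grain-fed group, and did not pass FDR 0.1 (log2 fold change -0.68, FDR = 0.104, edgeR), though it did so in 8 of 21 alternatives, with FDR = 0.0464 in DESeq2 as the lowest. bta-miR-150, a miRNA of lymphocytes, is also a member of the leukocyte list below.

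Markers of blood cells were read beside bta-miR-16b, because miR-16 is abundant in red and white blood cells. In the leukocyte list of bta-miR-150, bta-miR-142-5p, bta-miR-142-3p, bta-miR-155 and bta-miR-223, 0 of 5 passed FDR 0.1, against 19.1% of all tested miRNAs, and 3 of 5 had an unadjusted p below 0.05, against 25.2%. The summed level of the list was 743 to 993 CPM in grass-fed and 943 to 1132 CPM in grain-fed libraries, and none of its markers was at 0. Log2 fold changes were -0.51 in bta-miR-150 (FDR = 0.178), -0.62 in bta-miR-223 (FDR = 0.187) and -0.98 in bta-miR-142-3p (FDR = 0.182, all edgeR). The other markers were bta-miR-142-5p at -0.13 (FDR = 0.766) and bta-miR-155 at 0.40 (FDR = 0.442, both edgeR), and neither passed. Every grass-fed value of bta-miR-150 and of bta-miR-223 was below every grain-fed value. CPM ranges were thus apart for 2 of 5 leukocyte markers, against 32.9% of all tested miRNAs, or 13.2% with grass-fed lower. Calls in this list changed with the processing. bta-miR-150 passed FDR 0.1 in 6 of 21 alternatives, bta-miR-223 in 5 of 21 and bta-miR-142-3p in 2 of 21. For bta-miR-150 and bta-miR-223 these included other scalings and other count filters. With total counts alone, bta-miR-150 stood at -0.91 (FDR = 0.0432) and bta-miR-223 at -1.04 (FDR = 0.0450), and with upper-quartile scaling they stood at -0.31 (FDR = 0.321) and -0.44 (FDR = 0.261, all edgeR). In the erythroid list of bta-miR-451, bta-miR-144 and bta-miR-486, 0 of 3 passed and no p was below 0.05. The summed level was 419 to 643 CPM in grass-fed and 465 to 665 CPM in grain-fed libraries, with bta-miR-144 at 0 in 1 grain-fed library. These markers stood at -0.34 for bta-miR-451 (FDR = 0.442), -0.32 for bta-miR-144 (FDR = 0.868) and 0.31 for bta-miR-486 (FDR = 0.440, all edgeR). Every grass-fed value of bta-miR-486 was above every grain-fed value, as in 19.7% of all tested miRNAs. With total counts alone bta-miR-451 passed (-0.78, FDR = 0.0432), and with upper-quartile scaling it did not (-0.18, FDR = 0.663, both edgeR). The part of blood cells in the level of bta-miR-16b was not tested.

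bta-miR-15a, the partner of bta-miR-16a, did not pass the test. It had 75.8, 56.3 and 62.5 CPM in the grass-fed group and 83.8, 89.2 and 65.6 CPM in the grain-fed group. Grass-fed replicate 1 lay above grain-fed replicate 3, and the other grass-fed libraries lay below the whole grain-fed range. The log2 fold change was -0.30 (standard error 0.25, 95% interval -0.85 to 0.24, FDR = 0.493, edgeR). Its ratio to bta-miR-16a was between 0.0940 and 0.125 in grass-fed and between 0.0864 and 0.149 in grain-fed libraries, so the grain-fed range enclosed the grass-fed range (exact permutation p = 0.7, adjusted p = 0.875 over 5 ratios).

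bta-miR-195 and bta-miR-497, which share a primary RNA and are known in muscle and heart for withdrawal from the cell cycle after birth, did not pass the test. bta-miR-195 had 298, 161 and 294 CPM in the grass-fed group and 211, 304 and 275 CPM in the grain-fed group. bta-miR-497 had 101, 58.9 and 77.4 CPM in the grass-fed group and 81.8, 82.1 and 78.1 CPM in the grain-fed group. For both partners, grass-fed replicate 2 was the lowest of the 6 libraries, and the other grass-fed libraries lay within or above the grain-fed range or just below it. The log2 fold changes were -0.06 for bta-miR-195 (95% interval -0.67 to 0.54, FDR = 0.917) and -0.03 for bta-miR-497 (95% interval -0.61 to 0.56, FDR = 0.947, both edgeR). Without grass-fed replicate 2 they turned to 0.17 and 0.14. That animal had the lowest grass-fed level of every member but bta-miR-424-3p, and the lowest TMM factor (0.692). bta-miR-195 had between 2.58 and 3.797 counts for each count of bta-miR-497 over the 6 libraries, with mean log2 ratios of 1.64 ± 0.25 and 1.68 ± 0.28 (SD, n = 3 each, exact permutation p = 1.0). Nearest to bta-miR-195 in pattern was bta-miR-20a, a member of the miR-17/92 cluster, with a root-mean-square difference of 0.11 over the 6 libraries, where the median of 253 candidates was 0.59. bta-miR-2285u and bta-miR-2285o followed at 0.14 each.

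**Figure D3:**
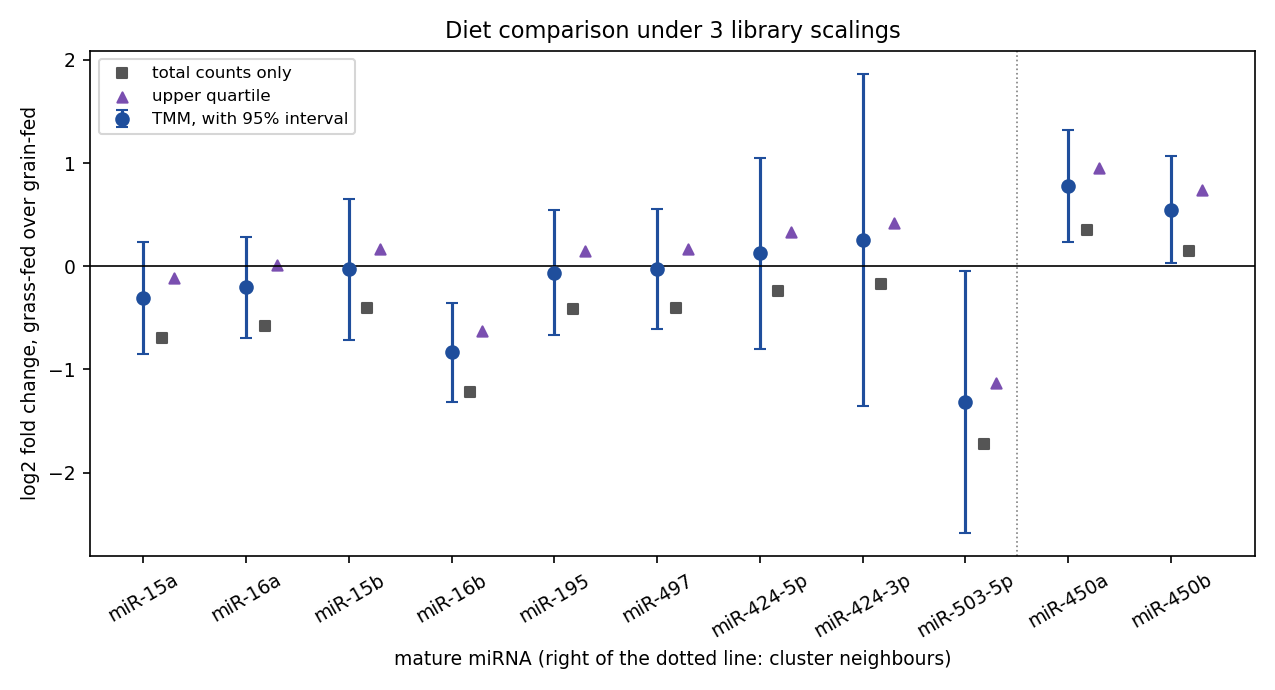
Log2 fold change of grass-fed over grain-fed for each member and, right of the dotted line, for bta-miR-450a and bta-miR-450b, with the 95% interval after TMM scaling and the values under total counts and upper-quartile scaling. Only bta-miR-16b and bta-miR-503-5p lie below 0 with the whole interval, and of these bta-miR-503-5p did not pass FDR 0.1 under any of the 3 scalings.

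In the cluster of bta-miR-424 and bta-miR-503, 0 of 3 member arms passed FDR 0.1 in edgeR, against 19.1% of all tested miRNAs. An unadjusted p below 0.05 was reached by 1 arm, against 25.2% of all tested miRNAs. Their cluster neighbour bta-miR-450a was higher in grass-fed liver. bta-miR-424-5p, the arm with the family seed, had 31.2, 11.5 and 25.7 CPM in the grass-fed group and 19.5, 22.7 and 21.3 CPM in the grain-fed group. The grass-fed libraries spread on both sides of a narrow grain-fed range. The log2 fold change of bta-miR-424-5p was 0.12 (standard error 0.42, FDR = 0.885, edgeR), and it turned to -0.24 with total counts alone. Nearest in pattern to it were bta-miR-2285o, bta-miR-2285u and bta-miR-20a, at root-mean-square differences of 0.26, 0.27 and 0.28 (median of candidates 0.65).

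bta-miR-503-5p was scarce, with 13, 5 and 11 counts in the grass-fed and 4, 4 and 5 counts in the grain-fed libraries. As levels these were 2.74, 1.18 and 2.89 CPM in the grass-fed group and 3.90, 5.66 and 8.87 CPM in the grain-fed group. Every grass-fed value was below every grain-fed value, but the 95% counting intervals of the grain-fed levels began at 1.06, 1.54 and 2.88 CPM and so reached into the grass-fed range. The log2 fold change was -1.31 (standard error 0.58, unadjusted p = 0.0435, FDR = 0.182, edgeR), so bta-miR-503-5p did not pass the threshold. It passed only with limma-voom, with FDR = 0.0943, and its FDR was between 0.0943 and 0.402 over all alternatives.

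bta-miR-424-3p had 26, 18 and 9 counts in the grass-fed and 7, 1 and 0 counts in the grain-fed libraries, which is 5.47, 4.24 and 2.36 against 6.82, 1.42 and 0 CPM. The groups overlapped, and at this depth no difference was detectable (log2 fold change 0.25, 95% interval -1.36 to 1.87, FDR = 0.878, edgeR). The 5p arm was the more frequent in each of the 6 libraries, with between 2.72 and 10.9 counts for each 3p count in grass-fed liver. In grain-fed liver 20, 16 and 12 counts of the 5p arm stood against 7, 1 and 0 of the 3p arm, too few to compare arm use between the diets (exact permutation p = 0.4).

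bta-miR-450a had 194, 180 and 133 CPM in the grass-fed group and 113, 92.0 and 88.7 CPM in the grain-fed group. Each grass-fed library was above each grain-fed library, a 1.71-fold difference (log2 fold change 0.78, standard error 0.25, FDR = 0.0532, edgeR). This call was lost with total counts alone (log2 fold change 0.36, FDR = 0.460, edgeR) and with totals without bta-miR-122 (0.55, FDR = 0.173, edgeR). Leaving out 1 library ended it for every library except grass-fed replicate 3, at values between 0.58 and 0.85. bta-miR-450b had 199, 161 and 147 CPM in grass-fed and 112, 102 and 135 CPM in grain-fed libraries, again with separate ranges, and did not pass FDR 0.1 (log2 fold change 0.55, FDR = 0.177, edgeR). It passed with upper-quartile scaling (0.74, FDR = 0.0385, edgeR) and fell short with total counts alone (0.14, FDR = 0.812, edgeR). Of the 4 listed neighbours, bta-miR-503-3p had 12 counts over the grass-fed and 1 over the grain-fed libraries and did not pass (FDR = 0.753, edgeR), and bta-miR-542-5p, with 5 counts in all, was not tested. Thus 1 of 3 tested neighbours was higher and 0 were lower at FDR 0.1, against 9.43% and 9.65% of all tested miRNAs. Separate ranges with grass-fed higher were seen in 2 of the 3, against 19.7% of all tested miRNAs.

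Within libraries, bta-miR-424-5p had 11.4, 9.80 and 8.91 counts for each count of bta-miR-503-5p in the grass-fed group and 5.0, 4.0 and 2.40 in the grain-fed group. The ranges were separate, with a difference of 1.49 on the log2 scale (exact permutation p = 0.1, adjusted p = 0.25 over 5 ratios), and the grain-fed ratios rest on 4 or 5 counts of bta-miR-503-5p. In ratios chosen after the values were seen, bta-miR-503-5p to bta-miR-450a was lower by 2.31 on the log2 scale in grass-fed liver, again with separate ranges (exact permutation p = 0.1, adjusted p = 0.2 over 8 ratios). bta-miR-424-5p to bta-miR-450a overlapped between the diets (difference -0.81, exact permutation p = 0.2).

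**Figure D4:**
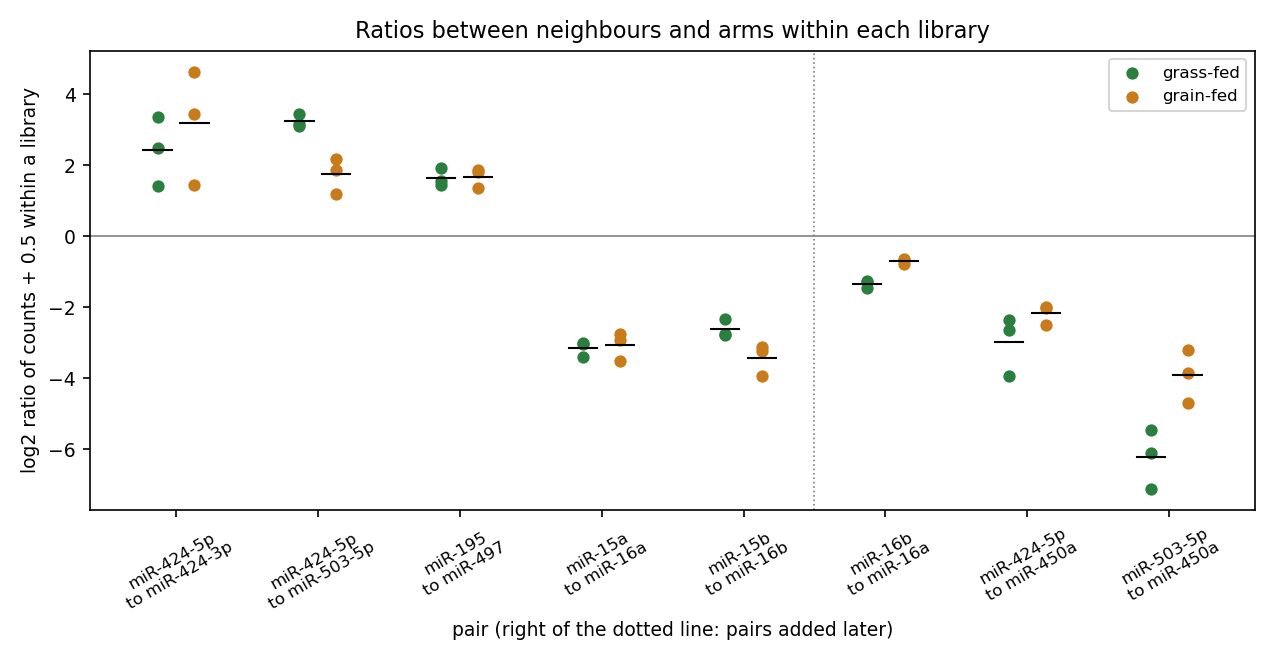
Log2 ratio of 2 counts, each plus 0.5, within each library, grass-fed in green and grain-fed in orange, with a black line at the mean of 3 libraries; pairs right of the dotted line were added after the values were seen. The diets are apart for bta-miR-424-5p to bta-miR-503-5p, bta-miR-15b to bta-miR-16b, bta-miR-16b to bta-miR-16a and bta-miR-503-5p to bta-miR-450a.

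Levels of the members spanned a wide range. By mean CPM over the 6 libraries the order was bta-miR-16a (622), bta-miR-16b (319), bta-miR-195 (257), bta-miR-497 (79.9), bta-miR-15a (72.2), bta-miR-15b (37.8), bta-miR-424-5p (21.98), bta-miR-503-5p (4.21) and bta-miR-424-3p (3.39). Mature miRNAs are of like length, so no length scaling was used, but the ease of ligation and sequencing differs between sequences. The ranges over the 6 libraries were separate between bta-miR-16a and bta-miR-16b, between bta-miR-195 and bta-miR-497, between bta-miR-15a and bta-miR-15b, and between bta-miR-424-5p and bta-miR-503-5p. Other neighbours in the order overlapped, and bta-miR-16b was above bta-miR-195 in 4 of 6 libraries, as was bta-miR-497 above bta-miR-15a. The copies of miR-16 supplied 61.3 to 72.0% of the counts of the 7 members with the family seed. Those 7 members, with the larger count of the miR-16 copies taken once, held 0.0927% ± 0.0341 of all miRNA counts in grass-fed and 0.133% ± 0.0171 in grain-fed liver (SD, n = 3 each), and the ranges overlapped. Counting both copies gave 0.113% ± 0.0404 and 0.181% ± 0.0237 (SD, n = 3 each), with ranges of 0.0668 to 0.141% and 0.156 to 0.203% that did not overlap. These shares depend on the total, of which bta-miR-122 held 26.2 to 31.7% in grass-fed and 14.9 to 21.6% in grain-fed libraries. Without bta-miR-122 in the total, the larger copy gave 0.130% ± 0.0458 and 0.163% ± 0.0191 (SD, n = 3 each), with overlapping ranges. The share with both copies was not computed without bta-miR-122. Grass-fed minus grain-fed was -0.0404 percentage points with the larger copy, -0.0675 with both copies, and -0.0209 with the larger copy and without grass-fed replicate 2.

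The direction of the small changes depended on the scaling of the libraries. Over all tested miRNAs the median log2 fold change lay at 0.13 with TMM scaling, -0.29 with total counts alone and 0.31 with upper-quartile scaling. Calls higher and lower in grass-fed liver numbered 43 and 44, 9 and 65, and 82 and 42 under the same scalings. Relative to that median, bta-miR-16b lay at -0.97, -0.93 and -0.94 under the same scalings, and bta-miR-503-5p at -1.45, -1.44 and -1.45. bta-miR-15a lay at -0.44, -0.41 and -0.43, and bta-miR-16a at -0.34, -0.29 and -0.30. bta-miR-424-5p lay close to the median under each of them, at -0.01, 0.05 and 0.02.

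Related miRNAs outside the family were read from lists. bta-miR-103 and bta-miR-107 have the family seed shifted by 1 base and are known for control of insulin sensitivity in liver. Both were higher in each grass-fed library than in any grain-fed library. In edgeR 0 of 2 passed FDR 0.1, with 1 at an unadjusted p below 0.05. Of all tested miRNAs, 19.7% had separate ranges with grass-fed higher, 19.1% passed FDR 0.1 and 25.2% had a p below 0.05. In bta-miR-103, mean levels were 3079 ± 409 CPM with grass and 2076 ± 375 CPM with grain feeding (SD, n = 3 each), with log2 fold change 0.57 and FDR = 0.103 in edgeR. In bta-miR-107 the levels were 563 ± 54.1 and 421 ± 21.1 CPM, with log2 fold change 0.42 and FDR = 0.212 in edgeR. With total counts alone these were 0.18 and 0.00, and with upper-quartile scaling both passed, at 0.78 (FDR = 0.0331) for bta-miR-103 and 0.60 (FDR = 0.0432) for bta-miR-107 in edgeR. bta-miR-103 also passed with limma-voom (FDR = 0.0745), with the older form of the edgeR fit (FDR = 0.0811) and without grass-fed replicate 2 (FDR = 0.0440). Of the p53-linked miR-34 and miR-449 miRNAs, which also restrain division, 3 of 5 were tested and 0 passed, 0 also having an unadjusted p below 0.05, with bta-miR-34a at 26.1 ± 3.49 and 29.7 ± 10.2 CPM (log2 fold change -0.25, FDR = 0.704, edgeR).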

How the data were processed

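Small RNA of 18 to 30 nt from liver was sequenced, 1 animal to a library. The authors trimmed adapters and poor bases, kept reads of miRNA length, aligned to ARS-UCD1.2 and counted known miRBase miRNAs by miRDeep2 (its version is not given in the sources used here). Their processing notes name FastQC 0.11.5 and Trimmomatic 0.36. The count table of the authors holds raw counts, with a line for every mature miRNA and precursor combination. The deposited CPM column, scaled by the authors to the library total, was not used. The largest count over precursors was taken for each mature miRNA.

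miRNAs with over 2 counts in 2 or more libraries were compared in edgeR version 4.0.16 by its quasi-likelihood test (R version 4.3.3, newer form of the fit, TMM scaling, Benjamini-Hochberg adjustment over all tested miRNAs, FDR 0.1). The study names edgeR, this filter and FDR 0.1. A standard error is the log2 fold change over the square root of F. Ratios used counts plus 0.5. Alternatives were other scalings and filters, DESeq2 version 1.42.0, limma-voom (limma version 3.58.1), other edgeR tests, sums over precursors, separate pairs, FDR 0.05, a replicate block, and each library left out. Members and lists were chosen with earlier results of these data known. All 9 members were named, with the lists and, for bta-miR-16b, bta-miR-195 and bta-miR-424-5p, the 3 nearest miRNAs. Replicates differed by more than the sampling noise.

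Each library held 464875 to 6133960 counts, with TMM factors between 0.692 and 1.21. Precision follows the counts: a level from 4 counts is far less certain than one from 2885.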

Additional observations from a re-analysis of the deposited data

How the results depend on the processing

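With 22 alternatives, 1 of 9 members passed FDR 0.1 in 20 of them, and it was bta-miR-16b wherever it was counted on its own. The number was 2 with limma-voom, which also called bta-miR-503-5p. It was 0 when bta-miR-16a and bta-miR-16b were counted as 1 miRNA. That setting kept the counts of bta-miR-16a alone, so bta-miR-16b could not be called in it. Leaving out any 1 library gave 1 each time. Over all miRNAs 87 passed, and between 49 and 86 did so with a library left out, 49 being the value without grain-fed replicate 2. With the replicate block, 1 member and 82 miRNAs passed, and bta-miR-16b had FDR = 0.0563 in edgeR. Same-numbered animals did not deviate together (correlations of -0.05, -0.20 and -0.01 across miRNAs), so the numbers only name the animals. In the block fit bta-miR-450a lost its call (FDR = 0.107, edgeR). An older form of the quasi-likelihood fit, added after the data were seen, called 1 member and 91 miRNAs.

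Members that did not pass the test changed sign in places. Upper-quartile scaling gave log2 fold changes of 0.17 for bta-miR-15b, 0.0095 for bta-miR-16a, 0.15 for bta-miR-195 and 0.17 for bta-miR-497. For bta-miR-424-5p it was -0.24 with total counts alone, -0.047 with library totals without bta-miR-122 and -0.031 with limma-voom, and for bta-miR-424-3p it was -0.17 with total counts alone. With a library left out, values lay between -0.33 and 0.14 for bta-miR-15b, -0.26 and 0.17 for bta-miR-195, -0.31 and 0.14 for bta-miR-497, -0.23 and 0.43 for bta-miR-424-5p, -0.19 and 2.27 for bta-miR-424-3p, and -0.48 and 0.0033 for bta-miR-34a. The log2 ratio of bta-miR-424-5p to bta-miR-424-3p turned from -0.76 to 0.092 with a pseudocount of 2. With a library left out, the difference lay between -1.62 and -0.03 for that ratio, -0.20 and 0.058 for bta-miR-195 to bta-miR-497, and -0.32 and 0.066 for bta-miR-15a to bta-miR-16a. For the ratios with separate ranges, all 8 alternatives gave differences between -0.67 and -0.57 for bta-miR-16b to bta-miR-16a. They lay between 0.56 and 0.95 for bta-miR-15b to bta-miR-16b, 1.21 and 1.71 for bta-miR-424-5p to bta-miR-503-5p, and -2.69 and -1.86 for bta-miR-503-5p to bta-miR-450a. Leaving out a library could not turn their direction, because the ranges were separate. Sums over precursors changed only the last of them. With a pseudocount of 2 the direction held, at -0.63, 0.74, 1.56 and -2.45 in that order. The cause of these changes was not tested. Depth limits bta-miR-503-5p and bta-miR-424-3p, which had 13 and 8 counts over the grain-fed libraries.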
